A study of Mus musculus with 3 samples.

Results

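The S100 proteins are small calcium-binding proteins, and 10 of their genes were followed in Colon26, a murine line from a colon adenocarcinoma, and in LuM1 and NM11, the sublines derived from it. They were *S100a8*, *S100a9*, *S100a1*, *S100a3*, *S100a4*, *S100a6*, *S100a10*, *S100a11*, *S100a13* and *S100a16*, and they were taken from 22907 genes that the probes named. A probe was counted as belonging to a gene when its RefSeq accession was listed for that symbol, which gave 12 probes for the 10 genes among 56605 distinct probes. These genes were chosen with their values on these arrays already known, so the differences below describe 3 cultures and were not tested.

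The labels call LuM1 high-metastatic and NM11 low-metastatic, and Colon26 is the parental line of both. The labels give female BALB/c for all 3 lines, name no engineered allele and no treatment, and describe the same serum-containing RPMI1640 medium with antibiotics and amphotericin B. Total RNA from 3 days of culture was labeled with the dye Cy3 and hybridized to 1 single-color array per line, which left every difference without a replicate check. Each line is a single established line, and a difference between the lines and a difference between single cultures cannot be told apart.

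S100 proteins bind calcium through a pair of EF-hand motifs, mostly act as dimers, and on binding calcium expose a surface that grips target proteins. Inside the cell the targets include annexins, cytoskeletal proteins and enzymes, and some S100 proteins are also released and act on receptors such as RAGE and Toll-like receptor 4. *S100a8* and *S100a9* encode the subunits of calprotectin, which neutrophils and monocytes hold in large amounts. Several members, among them *S100a4*, are widely studied in tumor invasion.

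Values are scaled signals, the background-corrected brightness of a probe with the arrays brought to a common 75th percentile of 585.1, in arbitrary units. The error given with ± is the one that the scanner software estimates for each spot, and it covers neither culture nor labeling. Signals of different probes are not comparable, because probes differ in how well they bind, so each gene was compared only with itself across the lines. The summed signals of marker lists add different probes and are descriptions only. In the flags of the scanner software, 49.9% of probes were well above background in Colon26, 53.8% in LuM1 and 52.5% in NM11, and none was saturated. Where a probe missed that flag in a line, only a limit could be given, written as "at least".

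The cells were checked against marker genes. Of 10 colon epithelial markers, 4 were well above background in Colon26, 5 in LuM1 and 4 in NM11, and *Cdh1*, *Cdx1*, *Krt18*, *Krt19* and *Vil1* were so on no array. The summed signal of that list, a description in which bright probes weigh most, was 1255 in Colon26, 509 in LuM1 and 486 in NM11. Its members did not go together, since *Krt20* gave 651, 54.5 and 157 in the same order and *Krt8* gave 28.9, 108 and 37.1. The epithelial identity that the word adenocarcinoma implies was therefore only partly visible in these RNAs.

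*S100a8* differed most between the lines. Its scaled signal was 38.4 ± 6.53 in Colon26, 287 ± 29.0 in NM11 and 18268 ± 1827 in LuM1 (probe A_51_P256827, NM_013650). The signal was well above background in all lines, lay close to the lower end of the measurable range in Colon26 (the dimmest probe well above background there stood at 26.4), and the intervals of the lines did not meet. The log2 ratio of LuM1 over Colon26 was 8.89 ± 0.28, a 476-fold difference. The ratio over NM11 was 5.99 ± 0.20, or 63.6-fold, and NM11 stood above Colon26 by 2.90 ± 0.29, or 7.47-fold. Among the 12242 genes measured on all arrays, only 5, *S100a8* included, had a ratio of LuM1 over Colon26 at least as high. For LuM1 over NM11 the number was 9, and for NM11 over Colon26 it was 117. This ranking leaves out genes that were not well above background in every line. Among those, *Dcn* and *Thy1* were at least 1041-fold and 741-fold higher in LuM1 than in Colon26. Over the processing alternatives the *S100a8* difference of LuM1 ranged from 178-fold to 648-fold against Colon26 and from 51.6-fold to 95.8-fold against NM11. For NM11 over Colon26 the *S100a8* difference ranged from 3.45-fold to 7.65-fold. The lowest value of each came from the normexp background correction.

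*S100a9*, whose product pairs with that of *S100a8* in calprotectin, was not measured well enough for a ratio. Its only named probe (A_55_P1998471, NM_001281852) gave 5.75 ± 5.77 in Colon26, 4.68 ± 4.14 in NM11 and 10.0 ± 4.48 in LuM1, and it was not well above background on any array. The LuM1 signal was the highest, but the intervals of the lines overlapped. By a looser rule of the software, significance above background, the probe passed in LuM1 and NM11 and missed in Colon26, and under that rule the signal in LuM1 was 2.14-fold that in NM11. The high *S100a8* signal of LuM1 was thus not accompanied by an *S100a9* signal well above background. Whether this probe can detect the *S100a9* transcript was not tested.

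**Figure D1:**
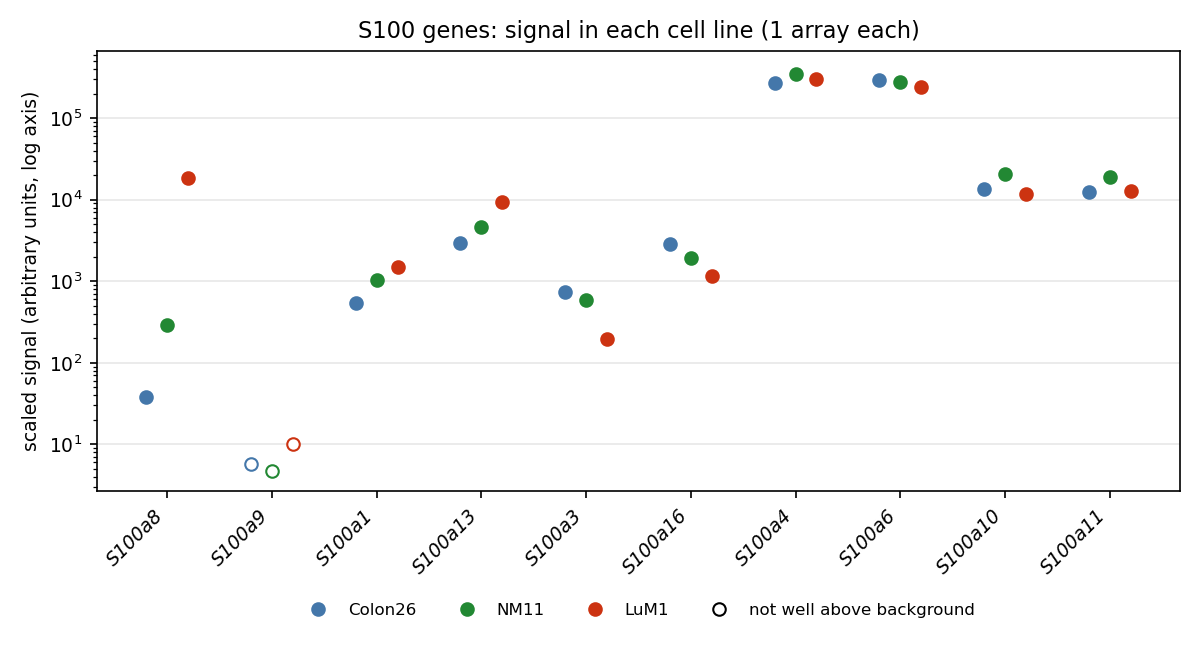
Scaled signal (arbitrary units, log axis) of each S100 gene in Colon26, NM11 and LuM1, 1 array each. Bars on filled points are the scanner error and are mostly smaller than the points, open points were not well above background and carry no bar, and levels are to be compared within a gene only. *S100a8* runs from 38.4 in Colon26 to 18268 in LuM1, *S100a1* and *S100a13* stand lowest in Colon26 and highest in LuM1, *S100a3* and *S100a16* the other way round, and the other measured genes differ by less.

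The promoters of this pair are printed because both genes are known targets of C/EBP transcription factors, and because they lie beside each other in the genome while only *S100a8* was measurable. Each sequence is the 250 bases before the annotated start, read 5′ to 3′ on the gene's own strand, from RefSeq on GRCm38.p6. Capitals mark matches to the C/EBP core TTNNGNAA on either strand and to the TATA box TATAAA on the gene's strand.
*S100a8*, chr3:90668821-90669070, plus strand: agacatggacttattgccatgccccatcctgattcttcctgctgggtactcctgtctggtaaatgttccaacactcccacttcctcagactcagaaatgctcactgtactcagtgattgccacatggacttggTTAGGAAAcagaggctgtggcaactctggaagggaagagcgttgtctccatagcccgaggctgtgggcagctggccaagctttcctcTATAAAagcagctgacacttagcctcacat
*S100a9*, chr3:90695722-90695971, minus strand: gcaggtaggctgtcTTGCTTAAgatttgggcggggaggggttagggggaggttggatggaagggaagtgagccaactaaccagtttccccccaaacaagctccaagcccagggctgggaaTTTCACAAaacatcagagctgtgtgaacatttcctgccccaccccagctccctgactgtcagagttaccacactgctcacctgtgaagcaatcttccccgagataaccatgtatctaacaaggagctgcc
In *S100a8* the C/EBP core began 117 bases and the TATA box 30 bases before the start. In *S100a9* the C/EBP core began 236 and 130 bases before the start, and TATAAA was met only 1 base after it, outside the printed window. These positions are relative to the annotated starts, and which start is in use in these lines was not tested. Of 32851 mouse promoters of the same length, 36.8% held the C/EBP core, 6.75% held the AP-1 motif TGANTCA on either strand and 7.59% held TATAAA. Of the 10 genes, 9 had a promoter in the table used, with 13 promoters in all. Within these windows the C/EBP core was found for 3 of the genes (*S100a8*, *S100a9* and *S100a3*), TGANTCA for 2 (*S100a11* and *S100a16*) and TATAAA for 3 (*S100a8*, *S100a3* and *S100a4*). Counted by promoter, as the shares above are, the C/EBP core was in 4 of the 13, TGANTCA in 2 and TATAAA in 3. A match of letters is a description and was not tested as a binding site.

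*S100a1* and *S100a13* were also higher in LuM1. *S100a1*, best known from heart and skeletal muscle, where it modulates calcium cycling, gave 539 ± 54.2 in Colon26, 1022 ± 102 in NM11 and 1493 ± 149 in LuM1 (A_55_P1979645, NM_011309). The lines followed the order Colon26, NM11, LuM1 with intervals that did not meet, and LuM1 was 2.77-fold above Colon26 and 1.46-fold above NM11. *S100a13*, which takes part in the release of fibroblast growth factor 1 and interleukin 1 alpha by a route outside the classical secretory pathway, gave 2937 ± 294, 4561 ± 456 and 9284 ± 928 in the same order (A_51_P269852, NM_009113). It was 3.16-fold higher in LuM1 than in Colon26, and at 2.04-fold over NM11 it lay just past the 2-fold threshold. These genes are direct neighbors on opposite strands, and their promoter windows overlap.

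*S100a3* and *S100a16* were lower in LuM1. *S100a3*, known from the hair cuticle, gave 734 ± 73.6 in Colon26, 583 ± 58.5 in NM11 and 194 ± 19.8 in LuM1 (A_51_P468456, NM_011310). LuM1 was 3.78-fold below Colon26 and 3.01-fold below NM11, whereas Colon26 and NM11 differed by only 1.26-fold. *S100a16*, a broadly expressed member, gave 2869 ± 287, 1930 ± 193 and 1161 ± 116 in the same order on its brighter probe (A_55_P2148912, NM_026416). On that probe LuM1 was 2.47-fold below Colon26 and 1.66-fold below NM11.

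The other *S100a16* probe went further. Probe A_66_P114627 gave 2335 ± 234 in Colon26, 102 ± 11 in NM11 and 76.7 ± 8.76 in LuM1. It was 30.4-fold lower in LuM1 and 22.8-fold lower in NM11 than in Colon26. Both probes put the lines in the order Colon26, NM11, LuM1, but they disagreed on the size, and on this one NM11 stood near LuM1 instead of midway. Which transcripts each probe detects was not tested.

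The remaining genes differed little. *S100a4*, also called metastasin, which binds nonmuscle myosin IIA, gave 270498 ± 27050 in Colon26, 345490 ± 34549 in NM11 and 297722 ± 29772 in LuM1 (A_51_P105078, NM_011311). Its LuM1 and Colon26 signals agreed within the scanner error, with a log2 ratio of 0.14 ± 0.20. *S100a6*, or calcyclin, which binds the calcyclin-binding protein Cacybp, gave 294239 ± 29424, 278436 ± 27844 and 239928 ± 23993 in the same order (A_51_P281089, NM_011313), and no pair of lines differed by more than 1.23-fold. The gene named metastasin was bright in every line, and its log2 ratio of LuM1 over NM11 was -0.21 here but above 0 with 3 of the other scalings.

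*S100a10* and *S100a11* were highest in NM11 with this scaling. *S100a10*, the p11 subunit that joins annexin A2 in a complex at the plasma membrane, gave 13679 ± 1368 in Colon26, 20370 ± 2037 in NM11 and 11783 ± 1178 in LuM1 (A_51_P342871, NM_009112). LuM1 was 1.73-fold below NM11, and its second probe (A_66_P137316) gave 4408 ± 441, 7223 ± 722 and 3544 ± 354, which is 2.04-fold lower. *S100a11*, a partner of annexins A1 and A6, gave 12379 ± 1238, 18972 ± 1897 and 12655 ± 1265 (A_55_P2065991, NM_016740). Its LuM1 and Colon26 signals agreed within the scanner error, and NM11 was 1.53-fold above Colon26. For *S100a4*, *S100a6*, *S100a10* and *S100a11* at least 1 ratio changed sign when the arrays were scaled in another way, so no order of the lines is drawn for them.

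Against Colon26, 5 of the 9 measured genes differed by 2-fold or more in LuM1, as did 24.9% of all genes with a ratio. Higher were 3 (*S100a8*, *S100a1* and *S100a13*), against 13.1% of all genes. The number lower was 2 (*S100a3* and *S100a16*), against 11.8% of all genes. Against NM11, 3 differed (background 19.6%), of which 2 were higher (*S100a8* and *S100a13*, background 11.1%) and 1 was lower (*S100a3*, background 8.5%). Between NM11 and Colon26 only *S100a8* passed 2-fold on the probes used, where 16.2% of all genes did, and it was higher in NM11, as were 8.33% of all genes. The dimmer *S100a16* probe, not counted here, was 22.8-fold lower in NM11 than in Colon26. The dimmer *S100a10* probe, also not counted, was 2.04-fold lower in LuM1 than in NM11. Against both lines at once 3 differed (background 12.2%), and *S100a8* and *S100a13* were higher (background 7.9%) and *S100a3* was lower (background 4.34%). The median log2 ratio of the 9 genes was 0.03 for LuM1 over Colon26, -0.21 for LuM1 over NM11 and 0.57 for NM11 over Colon26, whereas over all measured genes it was -0.13, -0.11 and -0.02. The genes were chosen on these contrasts, so nothing is read from the difference between these shares.

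**Figure D2:**
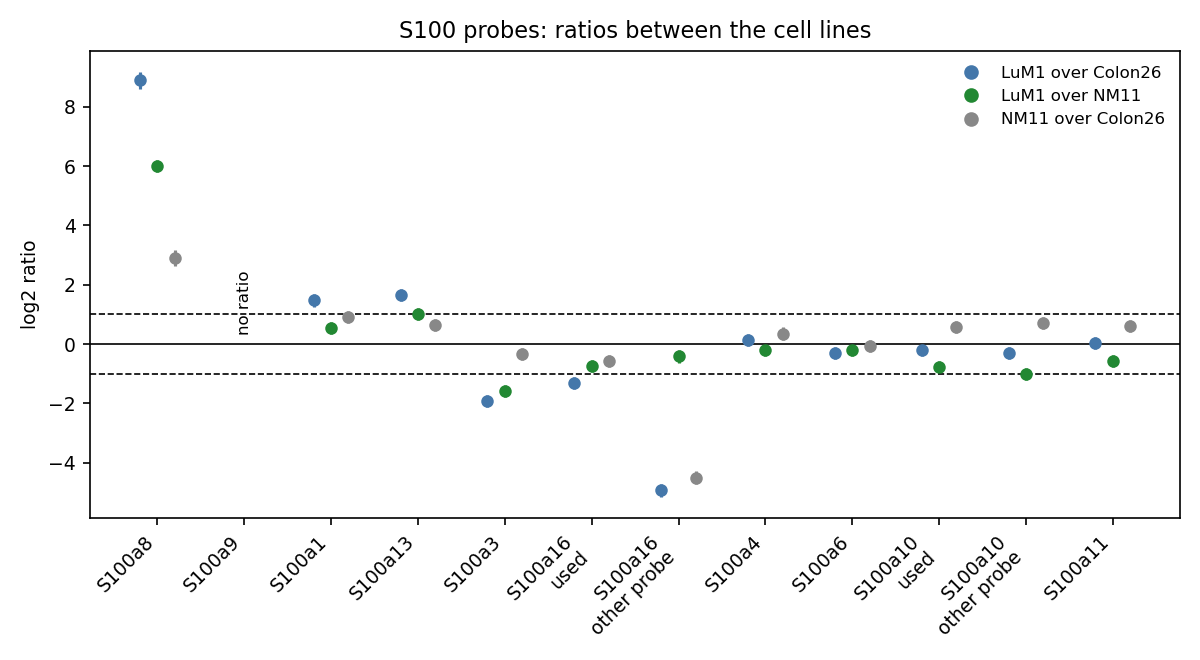
Log2 ratio of each S100 probe for LuM1 over Colon26, LuM1 over NM11 and NM11 over Colon26, with the scanner error as bars and dashed lines at 2-fold. *S100a8* stands at 8.89, 5.99 and 2.90, the second *S100a16* probe lies far below the probe used, and *S100a9* has no ratio because it was not well above background on any array.

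All 10 genes lie on chromosome 3, together with 5 further S100 genes. In their order, *S100a8* and *S100a9* are neighbors with *S100a7a* on one side and *S100a7l2* on the other. The high ratio of *S100a8* was not shared along this row. *S100a7a*, a psoriasin relative on the near side, was lower in LuM1 (391 in Colon26, 216 in NM11 and 152 in LuM1, a log2 ratio over Colon26 of -1.36), and *S100a7l2* was not well above background on any array.

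**Figure D3:**
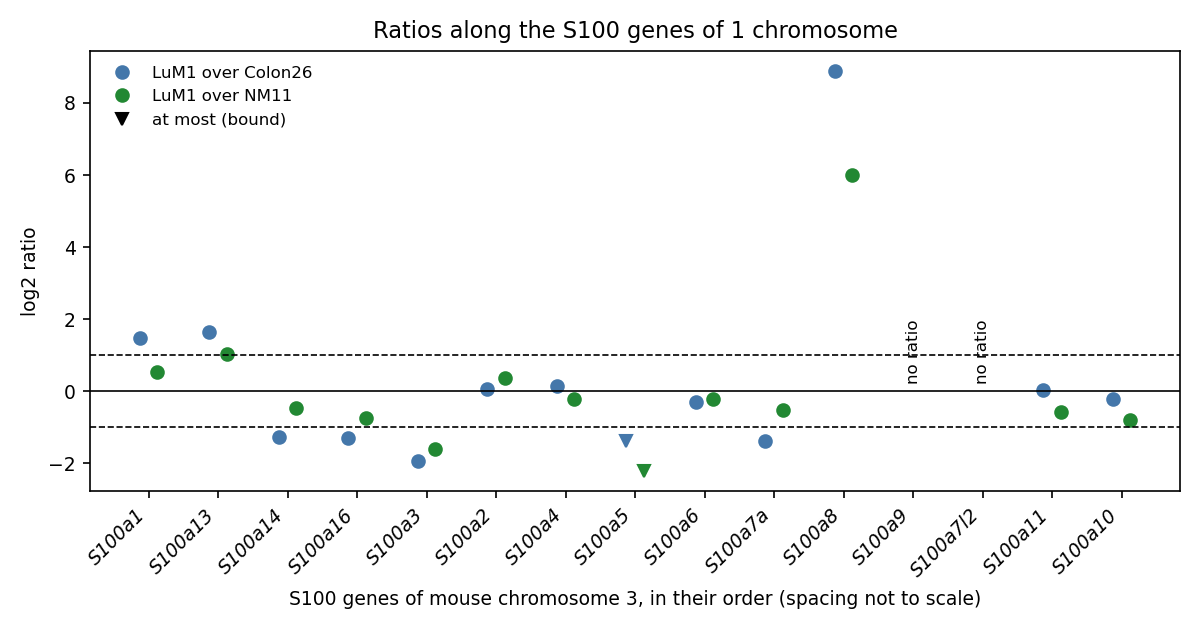
Log2 ratio of LuM1 over Colon26 and of LuM1 over NM11 for the 15 S100 genes of mouse chromosome 3, in their order and not to scale, with dashed lines at 2-fold and triangles for bounds. *S100a8* at 8.89 and 5.99 lies between *S100a7a* at -1.36 and -0.51 and *S100a9*, which has no ratio. *S100a1* and *S100a13* at one end are both higher in LuM1 than in Colon26.

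Of the 8 S100 genes outside the set, 5 had a ratio of LuM1 over Colon26, and past 2-fold 1 was higher (13.1% of all genes) and 3 were lower (11.8% of all genes). The higher one was *S100b*, a gene of glial cells, which was well above background only in LuM1, at 59.3, which is at least 2.25-fold the Colon26 level and at least 3.03-fold that of NM11. The lower ones were *S100a7a*, *S100a14* and *S100a5*. *S100a14*, an epithelial member, gave 90.1 in Colon26, 51.1 in NM11 and 37.2 in LuM1. *S100a5* gave 52.3 and 93.0 and was not well above background in LuM1, at least 2.60-fold below Colon26 and 4.62-fold below NM11.

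Receptors that S100 proteins engage were read next. Of 9 listed, 8 had a ratio against both other lines, and in LuM1 3 exceeded both by 2-fold or more (7.9% of all genes) and none was lower than in both (4.34% of all genes). *Cd14*, the co-receptor that hands ligands to Toll-like receptor 4, gave 1153 in Colon26, 988 in NM11 and 4175 in LuM1. *Tlr4*, the receptor through which S100A8 acts, gave 595, 839 and 1770 in the same order, 1.57 and 1.08 on the log2 scale for LuM1 over Colon26 and over NM11. Its dimmer probe (A_55_P2603039) was not well above background in Colon26 and gave 35.6 in NM11 and 59.4 in LuM1. On that probe LuM1 was at least 2.25-fold above Colon26 but only 1.67-fold above NM11, short of 2-fold. *Alcam*, an adhesion molecule that also serves as an S100B receptor, was not well above background in Colon26 and gave 1257 in NM11 and 3984 in LuM1, so that LuM1 exceeded Colon26 by at least 151-fold and NM11 by 3.17-fold.

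The rest of the Toll-like receptor branch was less uniform. *Ly96*, which encodes the MD-2 subunit, had log2 ratios of 0.43 and 0.68 for LuM1 over Colon26 and over NM11, and its dimmer probe (A_66_P137323) had 1.42 and 0.90. *Myd88*, the adaptor downstream, gave 2612 in Colon26, 4419 in NM11 and 2044 in LuM1, a log2 ratio over NM11 of -1.11. *Ager*, the gene of RAGE, gave 2072, 1422 and 1146 on its brightest probe, a log2 ratio over Colon26 of -0.85. *Ager* had 5 named probes, and all but the brightest stood highest in LuM1. Probe A_55_P2718102 gave 77.2 in Colon26, 60.0 in NM11 and 143 in LuM1, and A_55_P2723599 gave 73.0, 49.9 and 134. The others were well above background only in LuM1. The direction for *Ager* thus depended on the probe.

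Partners inside the cell were read in the same way. Of 17 listed, 14 had a ratio of LuM1 over Colon26, and past 2-fold 2 were higher (13.1% of all genes) and 1 was lower (11.8% of all genes). *Anxa6*, an annexin bound by S100A11 and S100A6, gave 1915 in Colon26, 2836 in NM11 and 9693 in LuM1 and was higher than in both. *Fgf1*, the growth factor released with S100A13, gave 53.8, 132 and 136, so NM11 and LuM1 were close, but another *Fgf1* probe (A_55_P2728202) gave 35.8, 34.9 and 30.2 and did not show this. *Ahnak*, a large scaffold protein bound by the complex of S100A10 and annexin A2, gave 37024, 25314 and 15114. *Anxa2* itself had log2 ratios of -0.58 and -0.55, and *Il1a*, whose product is exported with S100A13, was not well above background on any array.

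**Figure D4:**
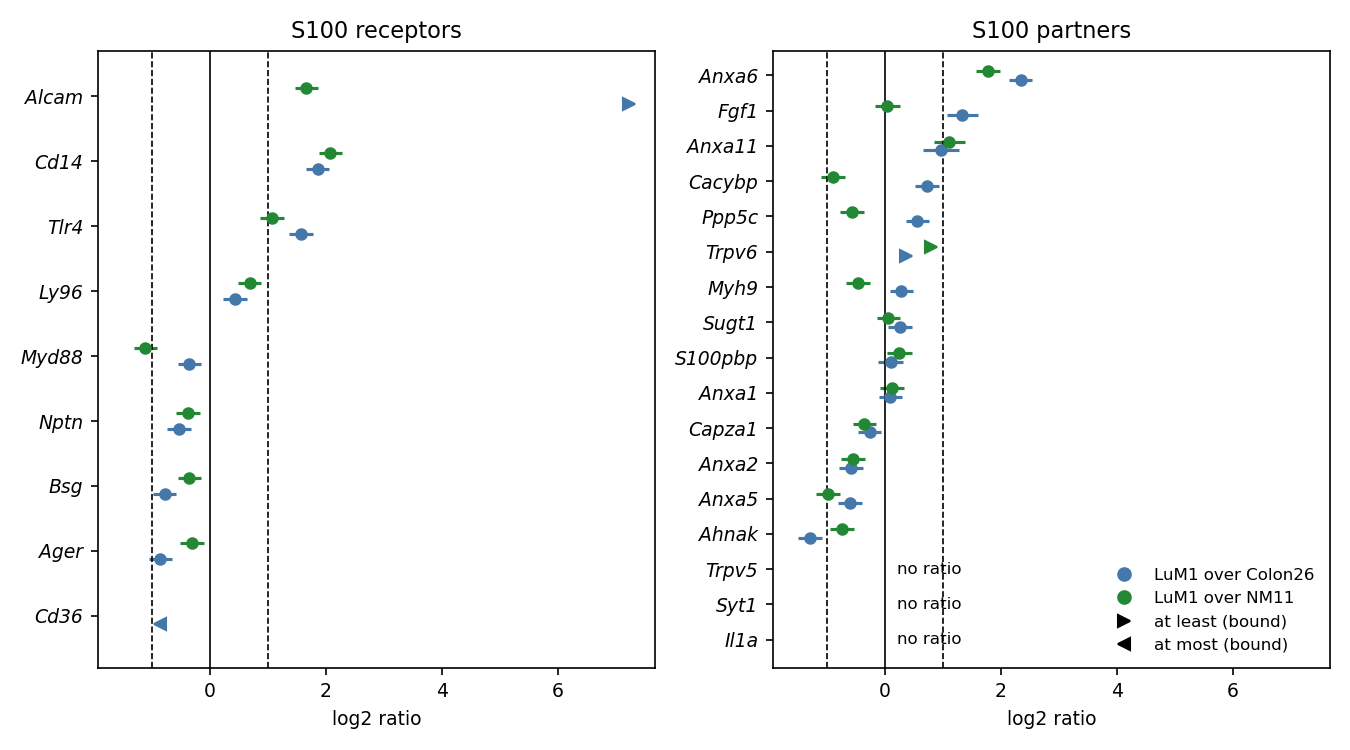
Log2 ratio of LuM1 over Colon26 and of LuM1 over NM11 for 9 receptors (left) and 17 partners (right) of S100 proteins, with the scanner error as bars, triangles for bounds and dashed lines at 2-fold. Each gene is shown by its brightest probe only. *Alcam*, *Cd14* and *Tlr4* lie past 2-fold in both comparisons, and among the partners *Anxa6* does, while most others lie between the lines.

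Because *S100a8* is abundant in neutrophils and monocytes, markers of these cells were set beside it. Of 15 listed, 14 were on the array by name, with 7 well above background in Colon26, 8 in LuM1 and 7 in NM11, and summed signals of 52626, 66411 and 47317 for Colon26, LuM1 and NM11. Most of each sum was the signal of 1 probe, that of *Csf3r* (46129, 52932 and 41471), named here after its values were seen. *Ptprc*, which marks all white blood cells, *Ltf* and *Ngp*, granule genes of neutrophils, and *Adgre1*, *Fcgr3* and *Retnlg* were not well above background on any array. *Itgam*, *Csf1r*, *Elane*, *Mpo* and *Camp* were well above background in every line and differed by less than 2-fold on the probes used. In Colon26, NM11 and LuM1, *Itgam* gave 5027, 4251 and 6818, and *Csf1r* gave 682, 675 and 691. A dimmer *Itgam* probe (A_55_P1977926) gave 63.4 in Colon26 and 31.0 in NM11 and was not well above background in LuM1. In LuM1, 2 of the list exceeded both other lines by 2-fold or more (7.9% of all genes). *Cd68*, a lysosomal protein of macrophages and other cells, gave 172 in Colon26, 299 in NM11 and 5251 in LuM1, and *Lyz2*, lysozyme of myeloid cells, was well above background only in LuM1, at 112. Of 8 fibroblast markers, 5 were well above background in Colon26 and 7 in each subline, with summed signals of 66337, 55465 and 121227 for Colon26, LuM1 and NM11. These sums hide opposite directions. *Col1a2*, a collagen I chain, gave 59896 in Colon26, 85275 in NM11 and 49.6 in LuM1. *Pdgfra*, a growth factor receptor, gave 218, 1286 and 3965 in that order. *Dcn*, the proteoglycan decorin, and *Thy1* were not well above background in Colon26 and gave 27503 and 19560 in LuM1 and 9599 and 15416 in NM11. The part of other cell types in the *S100a8* result was not tested. In bulk RNA, more cells with a transcript and more transcript per cell cannot be told apart.

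The genes whose pattern over the 3 arrays was most like that of *S100a8* were sought among the 12242 genes measured on all of them. Likeness was the distance in log2 units in the plane of the ratios of LuM1 over Colon26 and over NM11. The nearest was *Ctsk*, cathepsin K, at a distance of 1.23 (42.2 in Colon26, 96.7 in NM11 and 12603 in LuM1). *Gpsm3*, a regulator of G protein signaling, followed at 1.53 (83.2, 349 and 14856), and *Mapt*, the gene of tau, at 1.78 (54.1, 86.6 and 7925). No gene could be sought for *S100a9*, which was not measured.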

How the data were processed

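Members and gene lists were chosen with earlier results of these data known. One single-color array per line was measured, all on 1 slide in 1 scan. The authors deposited intensity values per spot from Agilent Feature Extraction 11.5.1.1 (submitters' processing notes), background-subtracted and detrended without scaling between arrays, with flags of 0 or 1 per spot. The table of processed intensity values they deposited is the scanner intensity multiplied by a constant for each array (Colon26 0.654, LuM1 0.829, NM11 0.706), with column medians of 22.6, 35.4 and 22.2. The reason for the factors is not given in the sources used here.

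Control spots and outlier spots (137 in Colon26, 74 in LuM1, 99 in NM11) were left out and repeated spots averaged. Scaling used the 75th percentile of each array over all spots that are not controls (581.1, 625.1 and 551.5 before scaling). Of 56605 probes, 32989 were named by RefSeq accession in the GRCm38.p6 gene table. A gene was its named probe with the highest mean log2 signal. A ratio against a probe not well above background was a bound, computed from that probe's signal or, if larger, the lowest signal well above background there (26.4, 20.1 and 19.6). No ratio was given where both were dim. Calls were made at 2-fold. The error of a log2 ratio combines the scanner errors of both signals, which are about 10% of a bright signal. The median SD over spots of a repeated probe was 0.036, 0.040 and 0.036 (log2). With 1 array per line no test was run, and precision is limited by the number of arrays.

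Every member was named with its values. From the preset lists (other S100 genes, receptors, partners, regulators and cell type markers), genes at least 2-fold different could be named, and further genes are given for their role. The 3 genes nearest to *S100a8* were named as well. The 12 alternatives are given with their effects in the closing section. The method was tested on simulated data. Python 3.11.15, numpy 2.4.6, pandas 2.3.3, scipy 1.17.1, matplotlib 3.10.9, R 4.3.3 and limma 3.58.1 were used. The experiments other than the arrays were not analysed here.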

Additional observations from a re-analysis of the deposited data

Results flagged for a closer look

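*S100a10* went opposite ways in the sublines. Its log2 ratio was -0.22 for LuM1 over Colon26 and 0.57 for NM11 over Colon26, each beyond the scanner error of 0.20, and the second probe gave -0.31 and 0.71. Both ratios use the same Colon26 array, and the difference between them was not tested. With quantile normalization the ratio for LuM1 was 0.02 and with the authors' processed values it was 0.23, so its sign depended on the scaling. Over all measured genes the median log2 ratio was -0.13 for LuM1 over Colon26 and -0.02 for NM11 over Colon26.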

How the results depend on the processing

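The alternatives were no scaling, the median of measured probes, *Hprt*, E1A spike-in controls, quantile normalization, normexp with an offset of 50 (planned on spot and background brightness, run on their medians), a looser rule of detection, dim probes kept, the processed table of the authors, the mean over probes, the probe brightest in LuM1, and a 4-fold threshold. Of 48 counts of S100 genes past the threshold, 43 stayed within 1.5 times. At 4-fold, 1 gene was left for LuM1 over Colon26, 1 for LuM1 over NM11 and 1 for LuM1 over both. For NM11 over Colon26 the count became 2 when scaled to *Hprt* and 2 with the mean over probes, *S100a16* being added as lower in each. Scaled to *Hprt*, *S100a3* fell just short of 2-fold against NM11 and *S100a1* passed it. With the authors' processed values *S100a16* was no longer 2-fold lower in LuM1 than in Colon26 (-0.86). Of 297 ratios of single genes, 102 could not move by construction, among them all under the looser rule, with dim probes kept and with the probe brightest in LuM1. Of the others, 124 moved by less than the scanner error, 71 by more, and 0 called ratios changed direction. Relative to the 75th percentile, the median log2 ratio of all genes moved by 0.45 for LuM1 over Colon26 and 0.41 over NM11 with the authors' values, and by 0.59 for LuM1 over NM11 with *Hprt*. The higher share of all calls moved from 52.5% to 77.7% for LuM1 over Colon26 with the authors' values and from 56.6% to 87.8% for LuM1 over NM11 with *Hprt*. The log2 ratio of *S100a8* for LuM1 over Colon26 was lowest with normexp (7.48) and highest with the authors' values (9.34). Signal over background limits *S100a9*. No paired analysis was possible because each line has 1 array and the labels carry no replicate numbers.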

Other observations

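Transcription factors known to act on *S100a8* and *S100a9* were also read. Of 14 listed, 11 had a signal well above background in every line, and past 2-fold 2 were higher (13.1% of all genes) and 2 lower (11.8%) in LuM1 than in Colon26. *Cebpd*, C/EBP delta, gave 4673 in Colon26, 35705 in NM11 and 49178 in LuM1, and *Stat3* gave 1337, 8355 and 7224. Both were higher in each subline than in Colon26, as was *S100a8*. *Cebpb*, C/EBP beta, gave 12016, 19392 and 23286 in the same order, below 2-fold in each comparison. *Cebpa* was highest in NM11 (88.1 in Colon26, 355 in NM11 and 79.5 in LuM1). *Atf3* (1595, 1787 and 314) and *Fosl1* (4991, 6520 and 2377) were lower in LuM1 than in both. The part of these factors in the *S100a8* signal was not tested.

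The protein-coding genes around *S100a8*, 10 on either side, were read after its value was seen. Of these 20, 17 were on the array by name and 12 of them are S100 genes. A ratio of LuM1 over Colon26 was available for 12, of which 2 were 2-fold higher (13.1% of all genes) and 5 lower (11.8%), and the highest log2 ratio among them was 1.66, that of *S100a13*.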
